A study of Mus musculus with 24 samples.

Results

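The Exc-Gpc6 cluster is a group of excitatory neuron nuclei that the authors labelled by the gene Gpc6 in mouse ventral hippocampus. Its members were taken by their label, as the 4 snRNA-seq columns and the 4 snATAC-seq columns named Exc-Gpc6. They comprised 1186 of 30880 nuclei in snRNA-seq (3.84%) and 1510 of 27206 nuclei in snATAC-seq (5.55%). Among nuclei with an excitatory (Exc) label, they were 1186 of 17025 in snRNA-seq and 1510 of 23376 in snATAC-seq.

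The study profiled single nuclei of 2 inbred strains, C57BL/6J (B6) and DBA/2J (D2), by RNA and by chromatin accessibility. All mice were males of 10-16 weeks of age, and tissue of about 2 animals was pooled for each library. Each strain had 2 libraries per assay, numbered 2 and 3. For snRNA-seq the nuclei were sorted for the neuronal protein NeuN at a ratio of about 75-25, while snATAC-seq nuclei were not sorted by NeuN.

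Glypicans are heparan sulfate proteoglycans held on the outer cell surface by a lipid anchor. Their sugar chains bind growth factors, morphogens and synaptic adhesion proteins, and glypicans released by astrocytes, Gpc6 among them, are known to promote the formation of excitatory synapses. The ventral hippocampus lies next to the subiculum, the entorhinal cortex and the amygdala, so excitatory neurons of several regions can be present in a dissected piece.

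Depth differed between libraries. In snRNA-seq, the cluster held 288 nuclei in B6 library 2, 279 in B6 library 3, 395 in D2 library 2 and 224 in D2 library 3. Their summed counts were 1875716, 2391184, 2438459 and 1465810 in the same order. The share of all nuclei was 3.31%, 3.55%, 4.94% and 3.55%, so D2 library 2 had the largest share and the other 3 libraries lay close together. In snATAC-seq the nuclei numbered 291, 368, 432 and 419, with 3029469, 6481224, 4738520 and 6037244 counts. Log2 levels correlated across 6969 genes at 0.984 between the B6 libraries, at 0.982 between the D2 libraries and at 0.924 to 0.938 between strains. Across 67215 peaks these correlations were 0.941, 0.954 and 0.883 to 0.916. They are descriptions across genes and peaks, which are not independent replicates. Every p-value below measures the spread between libraries of pooled animals.

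Which genes and regional markers set the cluster apart from other excitatory neurons was described first. Levels are in CPM, counts scaled to a total of 1e6, of the summed counts of 1 cell type in 1 library. No test was made of the cluster against other cell types, because the clusters were made from these counts. Symbols with at least 10 counts in each strain were used, 21654 of 33902 in the table, because the annotation used for each strain could not be checked. Of the 6969 with a mean of at least 20 CPM in Exc-Gpc6, 27 lay at least 2-fold above each of the 7 other Exc types in every library, with a pseudocount of 5 CPM. The same rule gave 72 symbols in Exc-DG, 52 in Exc-ENT, 36 in Exc-CA3, 11 in Exc-CA1-Camk2d, 10 each in Exc-CA1-Fras1 and Exc-Cdh12, and 3 in Exc-CA1-Galntl6. Of the 27, 7 also lay at least 2-fold above each of 5 non-neuronal types. The count fell to 13 with a pseudocount of 20 CPM.

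The label gene was abundant in every library. Gpc6 (GRCm38, chr14:116925315-117976544, plus strand) stood at 2089 CPM in B6 library 2, 2139 in B6 library 3, 1563 in D2 library 2 and 1480 in D2 library 3. All 4 libraries lay above every other excitatory type, of which Exc-CA1-Fras1 had the next level at a mean of 244 CPM and Exc-DG the least at 13.5 CPM. Gpc6 was also found in vascular and leptomeningeal nuclei at 1096 CPM, in astrocytes at 935 CPM and in oligodendrocyte precursors at 770 CPM. In Exc-Gpc6 the mean over the 4 libraries was 1818 CPM.

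By the ratio in the least favourable library, with the pseudocount of 5 CPM, the first gene was another surface protein, the receptor for neuropeptide S. Npsr1 (chr9:24097996-24316398, plus strand) measured 518, 466, 483 and 576 CPM in B6 libraries 2 and 3 and D2 libraries 2 and 3, the order kept from here on. The strains overlapped, and the D2 minus B6 difference was 0.06 in log2 (adjusted p = 0.750). The next type, Exc-CA1-Fras1, had 46.5 CPM, and no non-neuronal type exceeded 7.47 CPM. In the least favourable library Npsr1 was 2.93 log2 units above the next excitatory type.

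Kcnh5 encodes a voltage-gated potassium channel of the EAG family. It stood at 239, 244, 206 and 194 CPM, with both D2 libraries below both B6 libraries and no strain call (log2 difference -0.31, adjusted p = 0.0592). Exc-ENT had 39.8 CPM and oligodendrocyte precursors 198 CPM. In the list of 13 EAG and KCNQ potassium channels, the summed level of Exc-Gpc6 was 5099, 5200, 4565 and 4624 CPM. Its mean of 4872 CPM had rank 1 of the 8 excitatory types, but both D2 libraries lay below the mean of Exc-CA3, 4723 CPM. Of the 9 members tested for strain, 0 were higher and 2 lower in D2, Kcnh7 and Kcnq3, and the list's median log2 difference was -0.09. Of all symbols tested, 4.70% were higher and 7.69% lower, with a median of 0.01. Both calls were lost without D2 library 2 or without D2 library 3, and that of Kcnq3 also with DESeq2.

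Sgcz, which encodes zeta-sarcoglycan, measured 6305, 6495, 4564 and 4341 CPM against 1688 CPM in Exc-Cdh12, the next type. Lrrc4c, a postsynaptic adhesion protein that binds netrin-G1, measured 6331, 6561, 5492 and 5524 CPM against 2228 CPM in Exc-ENT and 6100 CPM in oligodendrocyte precursors. Fgf13, an intracellular protein that binds voltage-gated sodium channels, measured 358, 399, 278 and 289 CPM against 134 CPM in Exc-CA1-Camk2d and 1000 CPM in microglia. For all 3 genes both B6 libraries lay above both D2 libraries. Gabrg1, the gamma-1 subunit of the GABA-A receptor, had 46.9, 44.7, 26.2 and 23.9 CPM. No other excitatory type exceeded 5.95 CPM, while astrocytes had 91.8 CPM.

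Several genes better known from other tissues were also in the set. Emcn, a mucin-like glycoprotein of endothelium, had 48.0, 56.9, 96.4 and 116 CPM, where the next excitatory type had 3.30 CPM and vascular and leptomeningeal nuclei 26.6 CPM. For Emcn each D2 value exceeded each B6 value. Ddit4l, an inhibitor of mTORC1 signalling, had 56.5, 41.4, 70.5 and 73.7 CPM against 7.59 CPM in Exc-CA1-Camk2d. Pros1, the vitamin K-dependent protein S, averaged 33.4 CPM against 4.90 CPM in the same type, and microglia had 305 CPM. The remaining protein-coding genes named by the rule were Lemd1, Gadl1 (an amino acid decarboxylase), Rassf3, Tmem196 and Atp10b (a lipid flippase), with smallest log2 ratios from 1.11 for Atp10b to 1.33 for Lemd1. Tmem196 averaged 69.4 CPM against 198 CPM in oligodendrocyte precursors, and Rassf3 24.5 CPM against 65.4 CPM in microglia.

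Noncoding symbols accounted for 5 of the 20 named. 4930445B16Rik, a lincRNA gene on the opposite strand within Lrrc4c, had 1061, 1088, 735 and 667 CPM. Gm12146, annotated antisense within Atp10b, had 135, 144, 9.43 and 9.55 CPM. The deposited table gives counts per symbol and does not list the strand of the reads. Whether reads of 1 gene of such a pair were counted for the other was not tested. Gm42953 averaged 47.5 CPM, and 9130015G15Rik and B430010I23Rik, both antisense entries, averaged 103 and 61.6 CPM with larger levels in microglia (287 and 432 CPM).

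**Figure D1:**
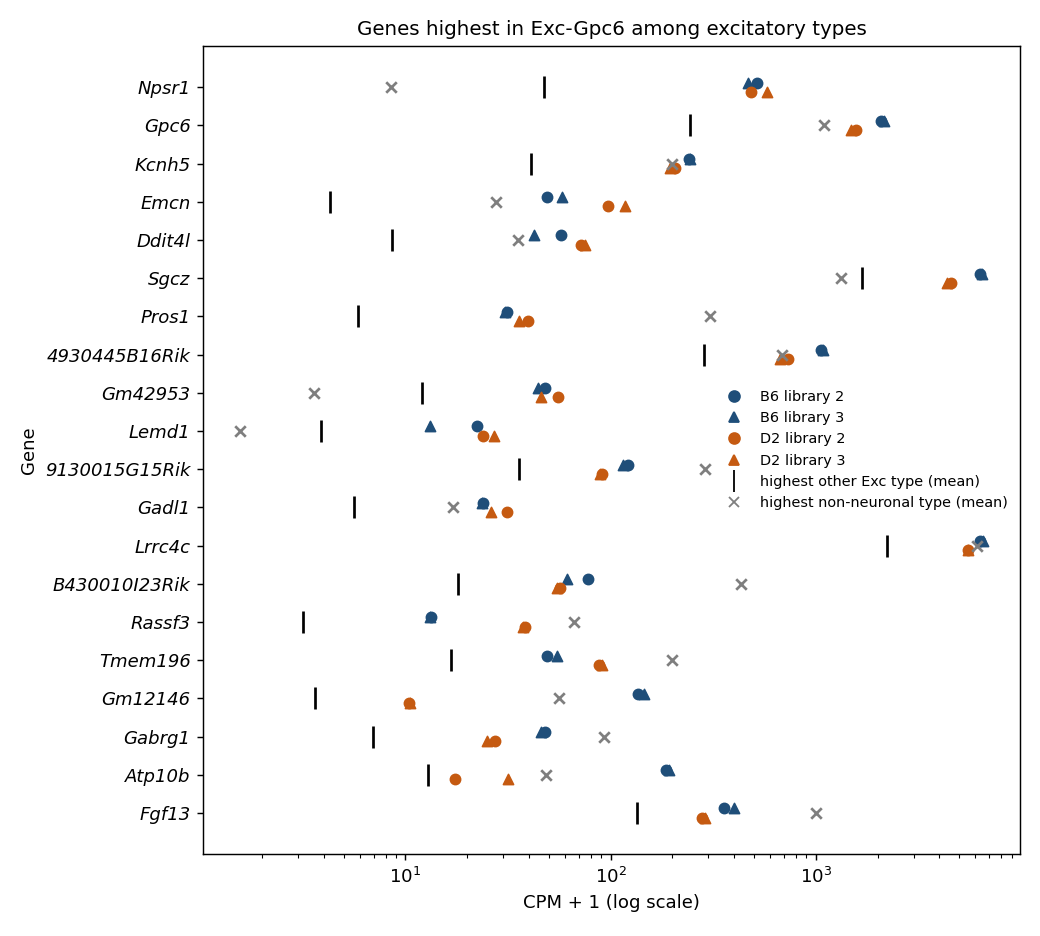
Level (CPM + 1, log scale) of the 20 named genes in the 4 Exc-Gpc6 libraries (points), with the mean of the highest other excitatory type (bars) and of the highest non-neuronal type (crosses). Npsr1 lay between 466 and 576 CPM against 46.5 CPM in the next excitatory type, and Gpc6 between 1480 and 2139 CPM against 244 CPM.

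Low genes were counted as well. Of 5628 symbols with at least 20 CPM in every other excitatory type, 9 lay at least 2-fold below all of them in every library. Robo1, a receptor for Slit guidance cues, had 45.8, 25.5, 10.3 and 25.2 CPM, where the lowest other type, Exc-DG, had 226 CPM. Dcc, a netrin-1 receptor, had 82.6, 81.1, 33.6 and 36.2 CPM against 185 CPM in Exc-Cdh12. Lrrtm4, a postsynaptic protein that binds heparan sulfate proteoglycans, had 134, 128, 103 and 94.8 CPM against 569 CPM in Exc-CA3 and 6421 CPM in Exc-DG. Dscaml1, a cell adhesion molecule, had 145, 143, 84.9 and 79.1 CPM against 347 CPM in Exc-Cdh12. In Dcc, Lrrtm4 and Dscaml1 both D2 libraries lay below both B6 libraries, while for Robo1 the D2 library 3 value lay just under that of B6 library 3. The other 6 named were Rnf112, Dgkg (a diacylglycerol kinase), Greb1l, Cntnap5b, Sorcs2 and the antisense entry Gm3848, with largest log2 ratios to the lowest other type from -2.03 for Rnf112 to -0.98 for Gm3848.

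The label was then checked against markers of neuron classes. The 8 glutamatergic genes summed to 1482, 1429, 1498 and 1556 CPM, rank 3 of the 8 excitatory types. Slc17a7, the main cortical vesicular glutamate transporter, averaged 219 CPM, rank 7 of the 8, and Slc17a6, another such transporter, 59.3 CPM against 30.0 CPM in Exc-Cdh12. Slc17a6, Neurod6 and Nrgn had their highest level in Exc-Gpc6, while Tbr1 was at 4.32 CPM against 31.4 CPM in Exc-ENT. GABAergic genes were near 0, with Gad1 at 2.61 CPM, Gad2 at 1.98 CPM, Slc32a1 at 1.71 CPM and no count of Lhx6 at this depth. Their summed level of 49.0, 55.2, 71.4 and 71.6 CPM was mostly Adarb2, at 52.1 CPM.

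Regional marker lists gave the cluster's profile by area and layer. For each gene, the level was expressed as a percent of the highest of the 8 excitatory types and averaged over the list. The list for layer 5/6 near-projecting cortical neurons was highest in Exc-Gpc6, at 65.6%, followed by 59.7% in Exc-ENT and 49.8% in Exc-Cdh12. Its transcription factor Tshz2 measured 2763, 2708, 2752 and 2618 CPM against 1888 CPM in Exc-Cdh12, and Vwc2l, a secreted protein, 740, 711, 688 and 641 CPM against 409 CPM in Exc-ENT. The strains overlapped for Tshz2, and for Vwc2l the D2 values were below those of B6 without a call (adjusted p = 0.279). The remaining members, Lypd1 at 15.8 CPM and Sla2 at 0.742 CPM, were at or near the lowest of the 8 types.

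Upper-layer intratelencephalic markers were likewise highest in Exc-Gpc6, at 63.3% beside 62.4% in Exc-Cdh12. The homeobox gene Cux2 had 371, 325, 477 and 441 CPM against 185 CPM in Exc-Cdh12, and the exchange factor Rasgrf2 147, 179, 135 and 133 CPM against 126 CPM in Exc-DG. Cux1 averaged 137 CPM beside 142 CPM in Exc-Cdh12. Rorb, a layer 4 marker, was at 2.53 CPM against 276 CPM in Exc-ENT. Both lists thus held members with low levels, and summed levels were highest in Exc-Gpc6 for both, at 3520, 3435, 3460 and 3273 CPM for the near-projecting list and 675, 668, 776 and 709 CPM for the upper-layer list.

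Hippocampal markers were mixed. The 5 CA3 genes summed to 1018, 946, 1006 and 980 CPM, next after Exc-CA3 itself at 2083 CPM. Of these, the kainate receptor gene Grik4 had 578 CPM and the proteoglycan gene Spock1 377 CPM, while Nectin3 (23.8 CPM) and Iyd (0.418 CPM) were far below Exc-CA3, at 252 and 8.13 CPM. CA1 markers summed to 326 CPM, rank 5 of the 8 types. Among them the homeobox gene Pou3f1 was highest in Exc-Gpc6 (44.6 CPM against 33.4 CPM in Exc-CA1-Fras1), Man1a was at 168 CPM, Mpped1 at 107 CPM, Fibcd1 at 4.99 CPM and the wolframin gene Wfs1 lowest of the 8 types at 1.74 CPM. Dentate granule markers summed to 33.6, 36.8, 15.2 and 19.8 CPM against 1144 CPM in Exc-DG, with Prox1 at 3.30 CPM. Mossy cell markers summed to 44.1 CPM, nearly all Ajap1, and CA2 markers to 22.4 CPM, the lowest of the 8 types. In the subiculum list, Slc17a6 carried most of the 62.9 CPM, and Fn1 was at 1.94 CPM against 165 CPM in Exc-CA1-Fras1.

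Deep cortical lists other than the near-projecting one were mixed. By mean percent, the layer 6 corticothalamic list had rank 3 of the 8 types at 17.9%, with Foxp2 (22.1 CPM) and Rprm (9.94 CPM) next after Exc-ENT. Its summed level of 120 CPM was the lowest of the 8 types, against 3559 CPM in Exc-ENT, where Hs3st4 made up 2632 CPM. Layer 6b genes summed to 1.90 CPM against 72.4 CPM in Exc-ENT. Layer 5 extratelencephalic genes summed to 52.2, 48.1, 21.3 and 15.0 CPM, also the lowest, with the transcription factors Bcl11b at 5.57 CPM and Fezf2 at 0.781 CPM against 264 and 53.1 CPM in Exc-CA1-Fras1. Deep-layer intratelencephalic genes summed to 50.0 CPM, rank 6 of the 8, with Deptor at 60.2, 53.5, 29.1 and 31.4 CPM. Basolateral amygdala genes summed to 215 CPM, rank 4 of the 8 (rank 3 by mean percent), and nearly all of it was Rspo2, a Wnt agonist, at 209 CPM, while Lmo3 was at 6.10 CPM. Thalamic genes summed to 386 CPM, rank 6 of the 8, with Rora at 383 CPM and Tcf7l2 at 1.05 CPM. Cajal-Retzius genes summed to 12.1 CPM.

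**Figure D2:**
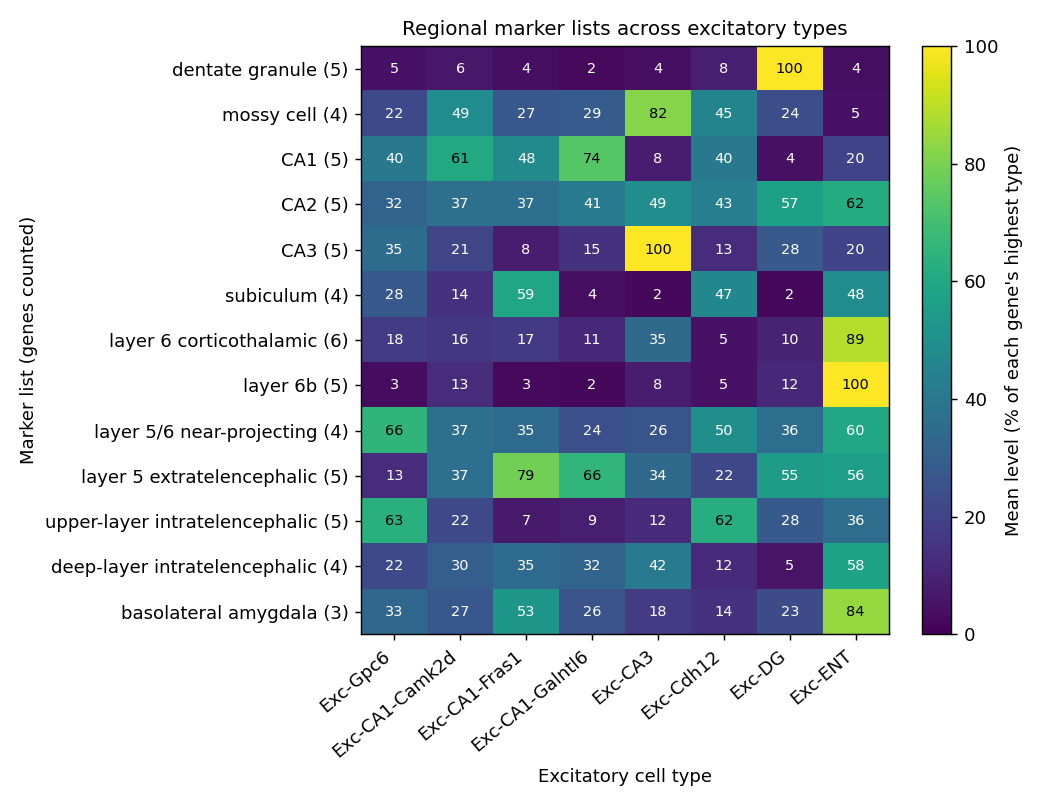
Mean level of each regional marker list in the 8 excitatory types, as a percent of each gene's highest type (color and numbers; the number of genes in parentheses). Exc-Gpc6 had the highest value for the layer 5/6 near-projecting list (65.6%) and the upper-layer intratelencephalic list (63.3%), and 4.97% for the dentate granule list.

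Across 8697 symbols, the mean log2 level of Exc-Gpc6 correlated most with that of Exc-Cdh12 (0.921), then Exc-CA1-Camk2d (0.874), Exc-ENT (0.851), Exc-CA1-Fras1 (0.830), Exc-CA1-Galntl6 (0.823), Exc-CA3 (0.776) and Exc-DG (0.770). These columns share libraries, and the values are descriptions without a test. Non-neuronal types ranged from 0.500 for microglia to 0.673 for oligodendrocyte precursors.

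Lists of the label gene's pathway were examined next. Of the 6 glypicans, only Gpc6 was highest in Exc-Gpc6 among excitatory types. Gpc5 had 34.1, 33.9, 69.3 and 49.1 CPM against 696 CPM in Exc-CA1-Galntl6, and Gpc4, the glypican known to bind Gpr158 and Lrrtm4, had 13.0 CPM against 170 CPM in Exc-DG. Among genes for glypican receptors and release, the orphan receptor Gpr158 was highest in Exc-Gpc6, at 895, 978, 877 and 845 CPM against 451 CPM in Exc-Cdh12, with overlapping strains. Ptprd, a receptor tyrosine phosphatase, averaged 7651 CPM beside 11116 CPM in Exc-Cdh12. Of 22 heparan sulfate enzymes counted in both strains, 3 were highest in Exc-Gpc6, beside 1237 of the 6969 symbols at 20 CPM or more. The 6-O-sulfotransferase Hs6st3 had 3600, 3788, 3180 and 3025 CPM against 2907 CPM in Exc-CA1-Galntl6.

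For the effect of strain, the Exc-Gpc6 nuclei of D2 were compared with those of B6 by an edgeR quasi-likelihood test. Of 12254 symbols tested, 1518 passed an adjusted p of 0.05 (12.4%), 576 higher in D2 (4.70%) and 942 lower in D2 (7.69%). The median absolute log2 difference of those called was 0.87, and 623 differed by 1 log2 unit or more. DESeq2 called 538 of the 1518, all in the same direction, and 1003 were called without B6 library 3. With symbols under that minimum in a strain added, 2570 were called, 1425 of them higher in D2.

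Gpc6 itself fell by 0.51 on the log2 scale in D2 (SE 0.08, adjusted p = 4.18e-05). The mean was 2114 ± 35.2 CPM in B6 and 1521 ± 58.8 CPM in D2 (SD, n = 2 libraries), and both D2 libraries lay below both B6 libraries. In the same libraries, the summed other excitatory types had 79.3, 75.2, 79.7 and 92.7 CPM of Gpc6. The strain difference in Exc-Gpc6 was lower than theirs by 0.60 log2 units (strain-by-cell-type term -0.60, SE 0.08, adjusted p = 2.64e-10). Compared only with the 2 most similar types, Exc-Cdh12 and Exc-CA1-Camk2d, the term was -0.47 and was not called (adjusted p = 0.597).

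The pathway lists were read beside all symbols tested, of which 12.4% were called with a median of 0.01. Of 4 glypicans tested, 1 was higher in D2 (Gpc5, 0.80, adjusted p = 0.00209) and 1 lower (Gpc6), with a median log2 difference of -0.21. Of 6 genes for glypican receptors and release, 0 were higher and 2 lower, Lrrtm3 and Lrrtm4, with a median of -0.13. Among 17 heparan sulfate enzymes, Extl1 (1.15) and Hs3st1 (0.71) were higher and Ext1 (-0.73, adjusted p = 1.59e-06) and Hs6st3 (-0.29) lower, with a median of -0.08. Ext1, a polymerase of the heparan sulfate chain, had 553, 509, 333 and 325 CPM, with no overlap between strains. The calls of Gpc5, Lrrtm3, Lrrtm4 and Hs3st1 were lost with DESeq2 and without at least 1 library, and that of Hs6st3 with 3 of the 4 libraries left out in turn.

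Among the 20 genes that set the cluster apart, several carried strain calls. Of all symbols tested, 12.4% were called, and of the 6969 at 20 CPM or more, 1056. Sgcz fell by 0.56 in D2 (adjusted p = 4.38e-06), Fgf13 by 0.46 (adjusted p = 0.00197) and 4930445B16Rik by 0.65 (adjusted p = 3.33e-06). Gm12146 fell by 3.91 and Atp10b, at 186, 192, 16.4 and 30.7 CPM, by 3.13 (adjusted p = 4.01e-15). Emcn rose by 0.95 (adjusted p = 1.55e-05), Tmem196 by 0.74 (adjusted p = 4.16e-04) and Rassf3, a Ras association domain protein at 12.3, 12.1, 37.3 and 36.2 CPM, by 1.55 (adjusted p = 1.67e-05). In each of these 8 genes the strains did not overlap, which was common among calls. Of the 1056 calls at 20 CPM or more, 369 higher and 676 lower in D2 had no overlap and a count in every library. Gabrg1 fell by 0.89 (adjusted p = 0.00132), a call lost with DESeq2, and those of Ddit4l (0.53), Lrrc4c (-0.27) and 9130015G15Rik (-0.44) were lost with DESeq2 and without at least 1 library. Of the low genes, Dcc fell by 1.28 (adjusted p = 3.66e-07) and Dscaml1 by 0.84 (adjusted p = 9.42e-06). Cntnap5b (-1.09, adjusted p = 0.00376) and Dgkg (-0.52, adjusted p = 0.0125) were also lower, calls lost with DESeq2 and for Dgkg without 3 of the 4 libraries in turn.

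Transcription factors of excitatory neurons followed. Of 30 in the list, 18 at 20 CPM or more, 10 had their highest level in Exc-Gpc6 and 6 their lowest. Those highest included Foxp1, Tshz2, Tshz3, Meis2, Mef2c, Bcl11a and Cux2. For comparison, 1237 of the 6969 symbols at 20 CPM or more were highest in Exc-Gpc6. Foxp1 had 666, 661, 351 and 379 CPM and fell by 0.91 in D2 (adjusted p = 1.52e-08). Tshz3 had 463, 493, 323 and 297 CPM and fell by 0.66 (adjusted p = 1.28e-05). Neurod6 had 115, 92.4, 174 and 203 CPM and rose by 0.82 (adjusted p = 1.34e-05), and Sox5, at 40.0, 64.8, 114 and 96.9 CPM, rose by 0.95 (adjusted p = 8.54e-05). Strains did not overlap for any of these 4 factors. Of 26 tested, 3 were higher and 6 lower in D2, with a median of -0.07, beside 4.70% and 7.69% of all symbols tested. Cux2 (0.37), Nfia (-1.53), Nfib (-0.44) and Prox1 (-1.99) were also called, and none of these 4 was called by DESeq2. Cux2, Nfib and Prox1 were also lost without at least 1 library.

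Receptor lists were read beside all symbols tested, of which 4.70% were higher and 7.69% lower in D2. Of 12 GABA-A receptor subunits tested, 0 were higher and 5 lower in D2, with a median of -0.30 beside 0.01 for all symbols. Gabrg3 had 397, 387, 196 and 190 CPM and fell by 1.06 (adjusted p = 3.60e-09), and Gabra2 401, 419, 271 and 261 CPM and fell by 0.66 (adjusted p = 1.45e-05). Strains did not overlap for these 2 subunits. Gabrg1 and Gabra5 were called as well, the latter (-0.43, adjusted p = 0.0370) lost without any 1 of the 4 libraries and with DESeq2. Gabrb2, at 614, 563, 642 and 615 CPM, was highest in Exc-Gpc6 among excitatory types and was not called. The summed list had 4635, 4637, 3786 and 3858 CPM.

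Of 23 glutamate receptor genes tested, Grin2d (0.79) and Grm2 (0.65) were higher and 3 lower in D2, among them Gria3 (-0.31) and Grin2a (-0.26), with a median of -0.09. None of these calls held with DESeq2, and each was lost without at least 1 library. Their summed level, 14320, 14557, 13919 and 13919 CPM, was the lowest of the 8 excitatory types. The AMPA receptor subunit Gria1 had 329, 319, 300 and 312 CPM against 2731 CPM in Exc-CA1-Galntl6, and the strains did not overlap, without a call (adjusted p = 0.501).

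Guidance receptors and neuropeptides completed the lists, read beside all symbols tested, of which 4.70% were higher and 7.69% lower in D2. Of 24 axon guidance receptors tested, Ephb1 was higher (0.81, adjusted p = 3.07e-05) and 5 were lower in D2, with a median of -0.07. Those lower were Dcc, Epha7 (106, 116, 57.8 and 63.4 CPM, -0.92), Robo1 (-1.14), Robo2 (-0.45) and Unc5d (-0.39), and the calls of Robo1 and Robo2 were lost with DESeq2. Both were also lost without B6 library 2 or D2 library 2, where Robo1 was at -0.71 and -0.51, and that of Unc5d without D2 library 3. Epha3, an ephrin receptor, was highest in Exc-Gpc6 at 513, 547, 580 and 632 CPM against 199 CPM in Exc-CA1-Camk2d and was not called. Of 6 neuropeptides tested, with a median of 0.33, 1 was called, Cck, with 296, 185, 281 and 487 CPM (0.62, adjusted p = 0.00922). Its strains overlapped, and the call was lost with DESeq2 (adjusted p = 0.794) and without either library 3.

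Among the regional markers, Crym fell by 1.97 in D2 (adjusted p = 7.25e-07), from 43.2 and 37.2 CPM to 11.9 and 8.19 CPM, and Deptor by 0.95 (adjusted p = 2.07e-04). Beside the 12.4% called of all symbols, 4.70% higher and 7.69% lower, calls per list were 1 higher of 4 tested for CA1 (Pou3f1, 0.86), 0 of 4 for CA3, 0 of 3 for the near-projecting list, 1 higher of 4 for the upper-layer list (Cux2) and 1 lower of 2 each for the layer 5 extratelencephalic and deep-layer lists. Of the single gene tested for thalamic and for Cajal-Retzius neurons, Rora (-0.40) and Reln (-1.92) were lower. No member was called in the lists for mossy cells, CA2, subiculum, layer 6 corticothalamic neurons or basolateral amygdala, and none was tested for layer 6b. Of 7 glutamatergic genes tested, Neurod6 and Nrgn (0.51) were higher, with a median of 0.19, and Adarb2 (0.52) was the only GABAergic gene tested. DESeq2 did not call Pou3f1, Reln or Adarb2, each also lost without at least 1 library, and the calls of Rora without D2 library 2 and of Nrgn without D2 library 3 were lost. Median log2 differences of these lists lay between -1.92 and 0.52.

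Among markers of other cell types, strain calls were found in the oligodendrocyte, microglia and dentate granule lists. Of all symbols tested, 12.4% were called, 4.70% higher and 7.69% lower in D2. Oligodendrocyte genes summed to 190, 192, 115 and 116 CPM in Exc-Gpc6, mostly Mbp at 93.1 CPM, against 13045 CPM in oligodendrocytes. Of the 3 tested, all were lower in D2, among them Mbp (-0.76) and Mobp (-1.48). Microglia genes summed to 280, 253, 203 and 209 CPM, mostly P2ry12 at 173 CPM, against 6843 CPM in microglia. There 2 of 3 tested were lower, P2ry12 (-0.36) among them. DESeq2 did not call Mobp or P2ry12, and P2ry12 was lost without any 1 library. Median log2 differences were -0.76 for the oligodendrocyte list, -0.36 for microglia, -1.17 for dentate granule cells, 0.10 for astrocytes and 0.47 for vascular genes. Dentate granule genes, with Dock10 the most abundant, had 2 of 3 lower, Prox1 and Dock10 (-1.17), both lost with DESeq2. The call of Prox1 was lost without any 1 library, and that of Dock10 without D2 library 2 or B6 library 3, the latter with -0.48 (adjusted p = 0.695). Astrocyte genes summed to 289, 265, 287 and 345 CPM, mostly Slc1a2, and 0 of 4 were called. Precursor genes summed to 6.05 CPM and none was tested, and of vascular genes, at 13.0 CPM, only Dcn was tested and not called. The part of nuclei or free RNA of these types in the strain differences was not tested.

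The largest strain differences were then named by size. Rnf121, a ubiquitin ligase of the endoplasmic reticulum and Golgi, had 36.8, 32.2, 751 and 822 CPM and was higher in D2 by 4.48 (SE 0.13, adjusted p = 1.16e-22). Atp5o, a subunit of the mitochondrial ATP synthase, had 21.9, 23.4, 555 and 459 CPM (4.44). Pisd, which makes phosphatidylethanolamine in mitochondria, had 39.5, 28.4, 441 and 448 CPM (3.69). Sfi1, a centrin-binding protein, had 47.4, 46.8, 311 and 315 CPM (2.69, adjusted p = 8.57e-17). For these 4 genes every D2 library lay several times above every B6 library. The other 6 named as higher were 9230109A22Rik (3.82), Naa11 (3.43), Stab2 (3.33), 4930467D21Rik (3.33), Mlycd (2.77), which encodes malonyl-CoA decarboxylase, and the antisense entry Rap1gapos (2.65).

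The named genes lower in D2 ranged there from 1 count to 103 counts per library. Schip1 had 1098, 1064, 42.2 and 48.4 CPM (-4.63, SE 0.12, adjusted p = 2.99e-23), and Cox16, an assembly factor of cytochrome c oxidase, 205, 221, 9.84 and 7.50 CPM (-4.60). Arhgap26, a GTPase-activating protein, had 861, 1049, 7 and 3 counts, and the mitochondrial gene mt-Co2 606, 1168, 2 and 3 counts. Tecta, the tectorial membrane protein alpha-tectorin, had 108, 103, 1 and 1 counts. Fitted log2 differences of -7.46, -8.28 and -6.48 for these 3 rest on few D2 counts and are not bounds. The other 5 were mt-Co3, mt-Atp6, Glcci1, Zfp91 and Umad1, with fitted differences from -7.83 to -4.09.

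**Figure D3:**
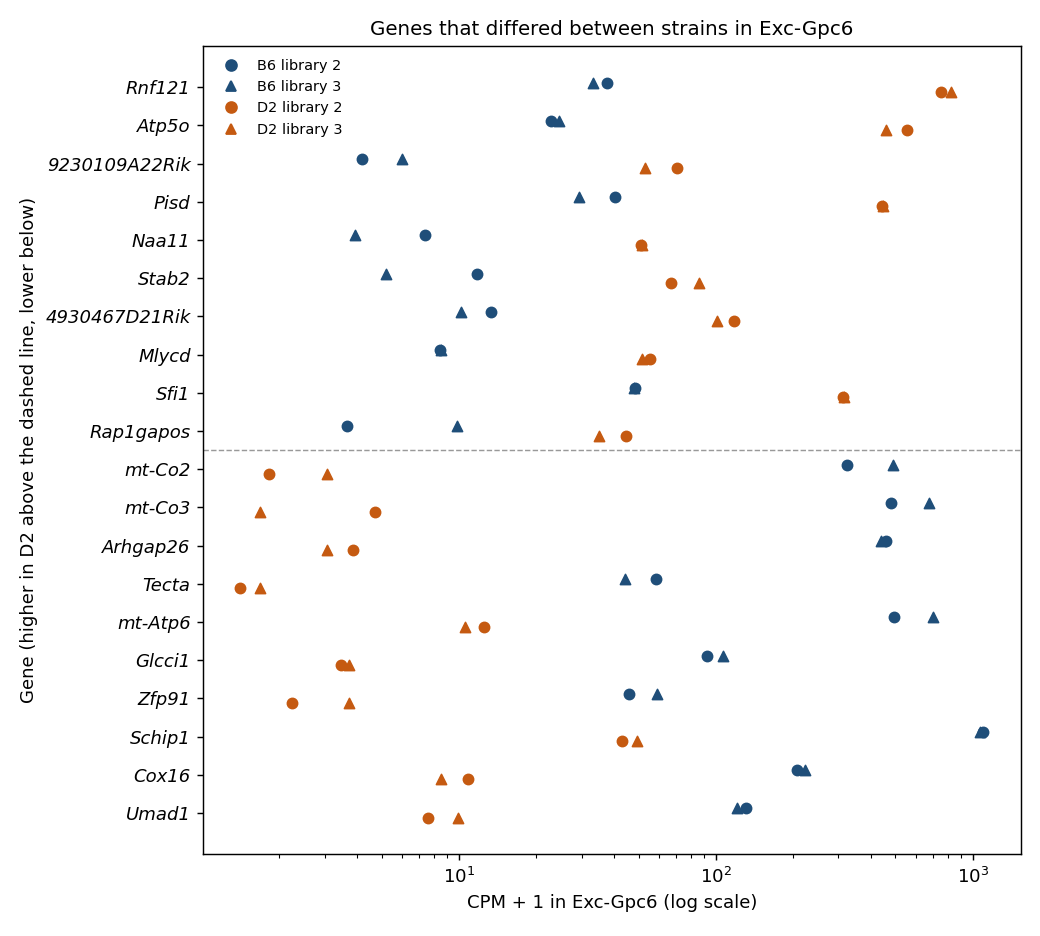
Level (CPM + 1 in Exc-Gpc6, log scale) of the 10 genes named as higher and the 10 named as lower in D2, by library. Rnf121 stood at 36.8 and 32.2 CPM in B6 and at 751 and 822 CPM in D2, and Schip1 at 1098 and 1064 CPM in B6 and at 42.2 and 48.4 CPM in D2.

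Most of these large differences had a counterpart in other excitatory neurons of the same libraries. Rnf121 measured 37.5, 39.0, 703 and 662 CPM there, and the strain-by-cell-type term was 0.38 (adjusted p = 0.217). Schip1 measured 1390, 1285, 57.7 and 66.4 CPM, with a term of -0.12 (adjusted p = 0.877). The strains were counted against different references, and the part of that in these differences was not tested.

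Whether strain acted differently in Exc-Gpc6 was asked with the strain-by-cell-type term, fitted with the library as a block on Exc-Gpc6 and the sum of the other excitatory types. Of 18504 symbols tested, 347 were called (1.88%), 165 with a more positive D2 minus B6 difference in Exc-Gpc6 and 182 with a more negative one. They included 208 of the 1518 strain calls (13.7%), which made up 59.9% of the 347. DESeq2 called 104, and comparison with only the 2 most similar types gave 58.

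Tecta showed the largest term, since the other excitatory types had at most 0.739 CPM in any library while B6 Exc-Gpc6 had 57.6 and 43.1 CPM. Plscr4, a phospholipid scramblase, had 93, 97, 3 and 0 counts in Exc-Gpc6, and 8.58, 8.16, 4.98 and 5.66 CPM in the others. Arhgap26 was low in D2 in both, and the others had 252 and 258 CPM in B6 and at most 12 CPM in D2. The noncoding D030068K23Rik had 82.1, 45.6, 6.15 and 1.36 CPM in Exc-Gpc6 and 127, 123, 84.3 and 78.9 CPM in the others. Terms were -7.58 for Tecta, -5.16 for Plscr4, -3.21 for D030068K23Rik and -2.94 for Arhgap26, and all 4 were called under every alternative. For Gm12146 the term was -2.72. Against the 2 most similar types it was -3.37 and was not called (adjusted p = 0.322).

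Plekhh2 ran in opposite directions. In Exc-Gpc6 it had 20.3, 17.1, 45.5 and 40.3 CPM, and in the other excitatory types 52.9, 54.7, 23.4 and 20.6 CPM. Strains did not overlap in either, with a term of 2.52 (SE 0.21, adjusted p = 3.24e-30). Rassf3 had at most 1.47 CPM in the others and a term of 2.16, and Sytl1, a Rab27 effector, had 6.93, 9.20, 37.3 and 27.3 CPM in Exc-Gpc6, at most 2.14 CPM in the others and a term of 1.90. The neighbours Naa11 and 4930467D21Rik had terms of 2.89 and 2.35, with Naa11 at 6.40, 2.93, 50.0 and 50.5 CPM in Exc-Gpc6 and 23.0, 18.8, 34.2 and 28.8 CPM in the others. Apart from that of Plekhh2, these terms were not called against the 2 most similar types. There they were 1.12 for Naa11, 0.89 for 4930467D21Rik, 0.71 for Rassf3 and 0.16 for Sytl1. The term of Sytl1 was also not called without D2 library 2.

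**Figure D4:**
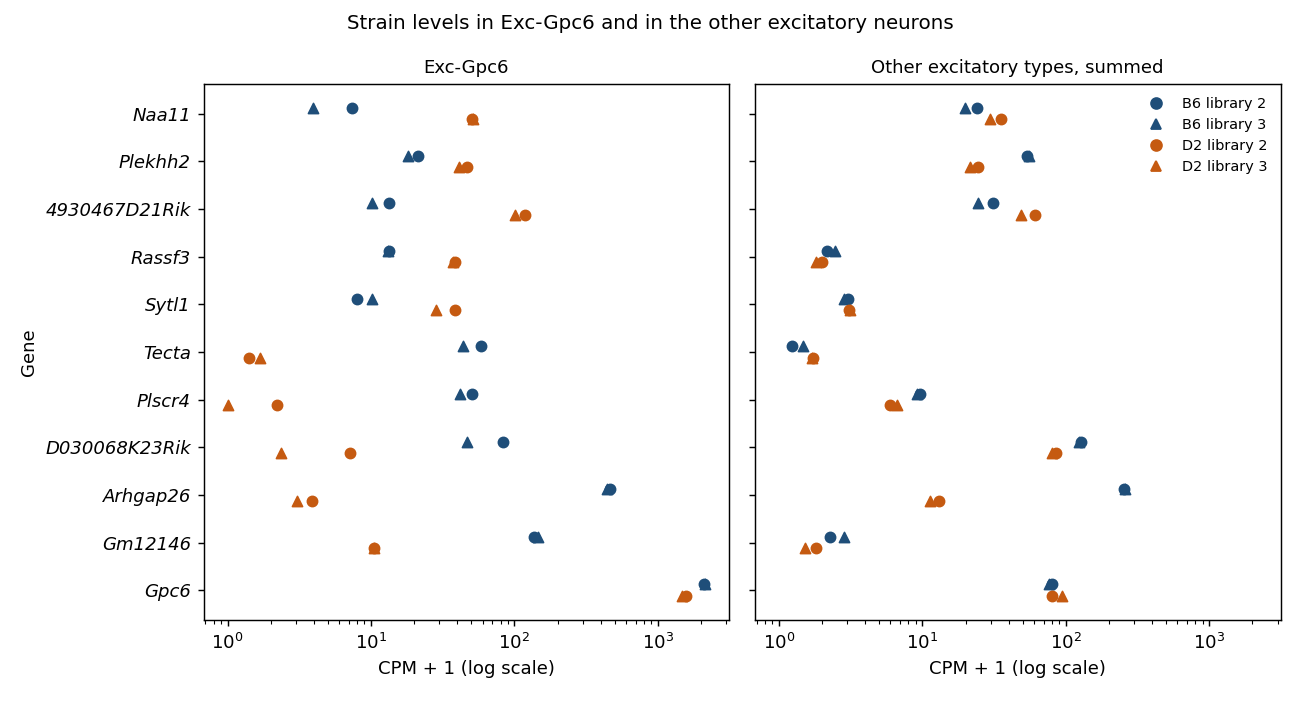
Level (CPM + 1, log scale) in Exc-Gpc6 (left) and in the sum of the other excitatory types (right) of the 10 genes named for the strain-by-cell-type term and of Gpc6, by library. Plekhh2 was at 45.5 and 40.3 CPM in D2 against 20.3 and 17.1 CPM in B6 in Exc-Gpc6, and at 23.4 and 20.6 CPM in D2 against 52.9 and 54.7 CPM in B6 in the other types.

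The snATAC-seq table held the same label, so open chromatin was described in the cluster as well. The authors transferred these labels from snRNA-seq, so the accessibility values are not independent of the RNA labels. Of 24107 peaks with a mean of at least 10 CPM in Exc-Gpc6, 337 lay at least 2-fold above every other excitatory type in every library, with a pseudocount of 1 CPM. Exc-DG had 502 such peaks, Exc-ENT 212, Exc-CA3 167, Exc-CA1-Fras1 133, Exc-Cdh12 62, Exc-CA1-Galntl6 21 and Exc-CA1-Camk2d 9. Of the 337, 29 were within 1000 bp of an annotated start site, 126 in introns, 26 in exons and 156 between genes. Chosen after its values were seen, Grik4 held 3 of them, more than any other gene.

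The 5 peaks named by ratio included an intronic peak of the transcription factor subunit gene Taf4b, at 13.9, 13.0, 11.6 and 11.6 CPM against 0.426 CPM in Exc-CA1-Camk2d. An intronic peak of Hhip, a hedgehog-binding protein, had 13.9, 19.0, 19.6 and 21.9 CPM against 1.000 CPM in Exc-Cdh12 (chr8:80004121-80005288). Between genes were chr12:97069082-97069457, with 11.6, 13.7, 19.2 and 19.2 CPM, chr1:128914655-128915224, with 20.8, 17.3, 21.3 and 20.2 CPM, and chr1:75670844-75671643, with 22.1, 23.8, 24.3 and 25.2 CPM. No other excitatory type exceeded 2.51 CPM at these 3. The strain difference was called only at chr12:97069082-97069457 (0.62, adjusted p = 0.0349, DESeq2 adjusted p = 0.677).

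The central 300 bases of these 3 intergenic peaks and the promoter of Kcnh5 are shown because each carries a motif match. Capitals mark matches, on either strand, to the E-box CAGATG, which basic helix-loop-helix factors such as Neurod6 can bind, and to the AP-1 site TGANTCA. Peak sequences are the plus strand of GRCm38, with deposited starts read as counted from 1 (counted from 0, they would shift by 1 base), and the promoter is the minus strand of GRCm38.p6 from RefSeq.
chr12:97069120-97069419: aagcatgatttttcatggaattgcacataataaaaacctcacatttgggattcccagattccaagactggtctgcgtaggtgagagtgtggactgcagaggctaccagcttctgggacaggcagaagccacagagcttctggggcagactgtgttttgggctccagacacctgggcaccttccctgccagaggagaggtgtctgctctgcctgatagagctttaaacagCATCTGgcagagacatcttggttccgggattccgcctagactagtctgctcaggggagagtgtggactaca
chr1:128914790-128915089: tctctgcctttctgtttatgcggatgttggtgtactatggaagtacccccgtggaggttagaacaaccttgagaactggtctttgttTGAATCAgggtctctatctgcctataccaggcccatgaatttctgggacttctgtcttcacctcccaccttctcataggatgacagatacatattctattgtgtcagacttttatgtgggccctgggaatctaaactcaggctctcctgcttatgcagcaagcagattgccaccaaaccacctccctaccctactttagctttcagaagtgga
chr1:75671094-75671393: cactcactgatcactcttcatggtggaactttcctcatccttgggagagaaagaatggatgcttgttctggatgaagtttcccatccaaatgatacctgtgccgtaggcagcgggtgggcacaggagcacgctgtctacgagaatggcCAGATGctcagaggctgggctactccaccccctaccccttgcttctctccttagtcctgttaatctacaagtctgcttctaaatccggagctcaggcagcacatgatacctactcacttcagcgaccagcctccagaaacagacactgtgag
Kcnh5 chr12:75177283-75177582: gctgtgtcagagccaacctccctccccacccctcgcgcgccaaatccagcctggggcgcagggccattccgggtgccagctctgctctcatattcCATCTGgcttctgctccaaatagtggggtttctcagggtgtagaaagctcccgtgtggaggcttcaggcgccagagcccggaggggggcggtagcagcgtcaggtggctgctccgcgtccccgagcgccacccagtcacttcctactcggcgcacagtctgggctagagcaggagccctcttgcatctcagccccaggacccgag
The E-box, written CATCTG where it lies on the other strand, is marked in 3 of them and the AP-1 site in the peak at chr1:128914655-128915224. The window of the Hhip peak held no match, and of 17 promoter windows of the named genes 3 held CAGATG, with none in that of Npsr1. Over 300-base windows, CAGATG matched in 145 of 326 Exc-Gpc6 peaks (44.5%), in 22.7% of 23273 windows of peaks at 10 CPM or more and in 31.7% of 235556 windows of all peaks. TGANTCA matched in 17.2%, 9.87% and 14.1% of the same windows. Of 32851 RefSeq promoters, 17.2% held CAGATG and 7.81% TGANTCA. A match is a description and no sign of binding, and the shares were not compared by a test.

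Accessibility over the named genes was summed over the peaks in and within 2 kb of each gene. Of the 20 genes with high RNA levels, 14 had their highest summed peak level in Exc-Gpc6, and of the 10 with low levels, all 10 had their lowest there. The same counts were not made over all genes, so they have no background share. None of the 337 peaks lay over these 20 genes. Some of the 14 were close to Exc-ENT, such as Gm42953 (25.5 against 25.5 CPM) and Gadl1 (95.9 against 92.8 CPM). Over Gpc6, 154 peaks summed to 533, 571, 502 and 513 CPM against 376 CPM in Exc-CA1-Fras1, and 68 of the 154 were highest in Exc-Gpc6. Its promoter peak had 52.5, 51.7, 47.3 and 55.2 CPM against 26.6 CPM in Exc-Cdh12, with overlapping strains (log2 difference 0.04, adjusted p = 0.940). Kcnh5 had 88.1, 94.9, 96.2 and 92.8 CPM against 52.9 CPM in Exc-ENT, and its promoter peak, which spans the sequence above, 30.4, 36.4, 35.2 and 40.1 CPM.

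Further genes followed the RNA levels to different extents. Rassf3 summed to 89.1, 92.7, 89.9 and 98.9 CPM against 37.7 CPM in Exc-DG, with overlapping strains and no peak called. Cux2 summed to 217, 230, 271 and 261 CPM against 135 CPM in Exc-Cdh12, and Tshz2 to 406, 428, 340 and 385 CPM against 379 CPM in the same type. Bcl11b was the lowest of the 8 types at 55.6 CPM. Npsr1 had the largest RNA ratio in the least favourable library. Its peaks summed to 73.9, 77.8, 82.5 and 80.3 CPM, next after Exc-CA1-Fras1 at 87.8 CPM. Lrrc4c, at 361 CPM, had rank 4 of the 8 types.

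**Figure D5:**
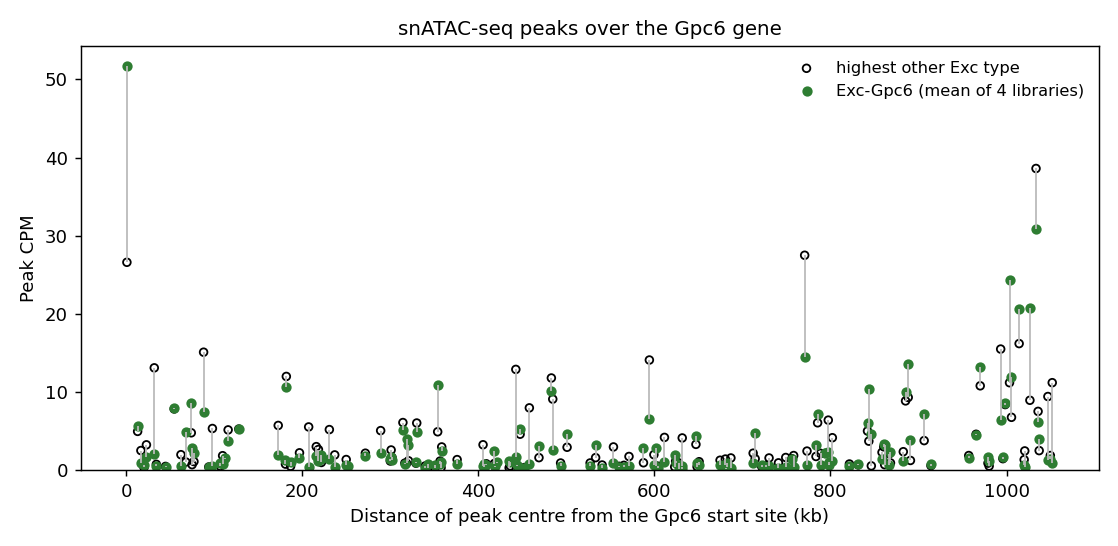
Accessibility (CPM) of the 154 peaks in and near Gpc6 by distance from its start site, as the mean of 4 libraries in Exc-Gpc6 (filled) and the highest other excitatory type (open). The promoter peak was at 51.7 CPM in Exc-Gpc6 and at 26.6 CPM in Exc-Cdh12, the next type.

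Strain differences in accessibility were tested over 203771 peaks, of which 4652 were called (2.28%), 2301 higher in D2 (1.13%) and 2351 lower in D2 (1.15%). DESeq2 called 907 of them. Leaving out a library gave between 1919 (without B6 library 3) and 3393 calls. Over Gpc6, 136 peaks were tested, with 0 higher and 5 lower in D2, all intronic. The most accessible of these 5, chr14:117710435-117710999, had 13.2, 7.87, 3.17 and 4.31 CPM (-1.30, adjusted p = 9.89e-04), and its strains did not overlap, while DESeq2 did not call it (adjusted p = 0.147).

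All 3 peaks named as higher in D2 lay over Sfi1 (chr11:3131850-3193463, minus strand), whose RNA was also higher. They were chr11:3163709-3164712, with 1.32, 2.01, 112 and 93.9 CPM (5.88, adjusted p = 7.56e-148), chr11:3133952-3134272, with 3, 1, 113 and 106 counts (fitted 5.58), and chr11:3143955-3146269, with 10.2, 10.2, 478 and 407 CPM (5.49). Of the 18 peaks of Sfi1, 17 were higher in D2, and they summed to 76.6, 76.2, 1580 and 1359 CPM. The window of an exonic one is shown because it carries a CAGATG match in a gene that was higher in both assays.
chr11:3133963-3134262: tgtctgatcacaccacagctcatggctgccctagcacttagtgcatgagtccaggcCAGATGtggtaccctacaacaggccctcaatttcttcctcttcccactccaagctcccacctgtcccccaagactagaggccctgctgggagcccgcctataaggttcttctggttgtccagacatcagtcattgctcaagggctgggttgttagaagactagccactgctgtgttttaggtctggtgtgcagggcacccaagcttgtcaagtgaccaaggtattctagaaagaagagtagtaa
Named as lower were chr17:86150555-86151320, between genes, with 48, 92, 1 and 1 counts, chr17:33980589-33981766, a promoter peak of CR974462.6, with 78, 150, 4 and 1 counts, and chr6:94583813-94585050, intronic in Slc25a26, with 47, 143, 3 and 2 counts. All 6 calls held under every alternative, and the part of the separate reference of each strain in them was not tested.

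Peaks over the genes with large RNA differences were counted beside all peaks, of which 1.13% were higher and 1.15% lower in D2. The named genes higher in D2 had 95 tested peaks, with 24 higher, 17 of them over Sfi1, and 3 lower. Those lower in D2 had 174, with 2 higher and 4 lower. Schip1 summed to 485, 501, 497 and 473 CPM with overlapping strains, although its RNA was far lower in D2. Tecta summed to 51.8, 55.9, 19.6 and 25.0 CPM, with 2 of 10 tested peaks lower, and Crym to 48.9, 49.2, 12.5 and 12.6 CPM, with 4 of 6 lower. For both genes the RNA was lower in D2 too. The promoter peaks of Stab2 (1.32, 1.23, 8.23 and 6.79 CPM, 2.59, adjusted p = 5.92e-08) and 9230109A22Rik (7.59, 5.71, 17.5 and 15.1 CPM, 1.41, adjusted p = 2.38e-07) were higher in D2, as was the RNA of both. All 3 lower peaks of the genes higher in D2 were those of Stab2, whose peaks summed to 128, 134, 104 and 119 CPM, below B6 in both D2 libraries.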

How the data were processed

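Values were taken from tables that the authors deposited for snRNA-seq and snATAC-seq, each value a raw count summed over the nuclei of 1 cell type in 1 library, and from the number of nuclei, which the authors counted per cell type and library. Per the submitters' processing notes, reads were processed with Cell Ranger 6.0.2 (introns retained) and Cell Ranger ATAC 2.0.0 on the mm10 genome, into which D2 variants had been written for the D2 libraries. Nuclei were filtered with Seurat 4.0.5, doublets were removed with DoubletFinder, peaks were called per sample with MACS and merged, and snATAC-seq cell types were transferred from snRNA-seq. The tables number the libraries 2 and 3 and the sample labels 1 and 2, and columns were therefore assigned to strains only. The tables hold no nucleus barcodes, so barcodes shared between libraries were not counted.

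The columns of 8 excitatory and 5 non-neuronal types were used in snRNA-seq, 52 in all, and those of the 8 excitatory types in snATAC-seq, 32 in all. The design said all cell types, but 16 snRNA-seq and 28 snATAC-seq columns were not used, so inhibitory neurons were not compared. Cluster members and gene lists were chosen with earlier results of these data known. Symbols needed at least 10 counts in each strain over the columns used. CPM used column totals.

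Strain (D2 minus B6) was tested with edgeR 4.0.16 in R 4.3.3 by a quasi-likelihood F test with TMM normalization, after filterByExpr for genes or at least 10 counts over the 4 libraries for peaks, and Benjamini-Hochberg adjustment over all features tested, with calls at adjusted p under 0.05. The strain-by-cell-type test fitted library, cell type and their strain term on 8 columns. SE is the log2 difference divided by the root of F. The biological coefficient of variation was 0.0693 for genes and 0.0642 for peaks. Alternatives were DESeq2 1.42.0, RLE normalization, other count filters, all symbols, the library number as a block, other pseudocounts, TMM-scaled CPM, the 2 most similar types and leaving out each library in turn. With 1 library left in a strain, its spread was taken to be like that of the other strain. The fits were tested on simulated data.

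Named genes at a mean of at least 20 CPM were those with the 20 largest smallest-over-libraries log2 ratios to the highest other excitatory type. Others at that mean were the 10 largest called strain differences in each direction, without overlap and with a count in every library. The 5 largest called strain-by-cell-type terms in each direction were also taken at that mean. The 10 low genes had the lowest ratios to the lowest other excitatory type, among symbols at 20 CPM or more in every such type. Named peaks were the 5 largest ratios at 10 CPM and the 3 largest called strain differences in each direction at 3 CPM with a count in every library. Other genes named belong to fixed lists or were chosen after their values were seen. Not counted in both strains were the list members Lhx1, Gpihbp1, Hs3st6, Grm6, Gabra6, Gabre, Crh and Gal. Coordinates came from GENCODE vM21 on GRCm38. Tables and plots were made with Python 3.11.15, numpy 2.4.6, pandas 2.3.3, matplotlib 3.10.9 and pysam 0.24.0.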

Additional observations from a re-analysis of the deposited data

Results flagged for a closer look

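Each of the following differed between groups, as the D2 minus B6 difference in Exc-Gpc6 differed from that in the other excitatory neurons of the same libraries (strain-by-cell-type term, log2, edgeR adjusted p under 0.05). Among genes named for this term, it was 2.89 for Naa11, 2.52 for Plekhh2, 2.35 for 4930467D21Rik, 2.16 for Rassf3 and 1.90 for Sytl1. Of these, only that of Plekhh2 was called against the 2 most similar types, where the others were smaller. The term was -7.58 for Tecta, -5.16 for Plscr4, -3.21 for D030068K23Rik, -2.94 for Arhgap26 and -2.72 for Gm12146. That of Gm12146 was not called against the 2 most similar types, at -3.37. The terms of Tecta and Plscr4 rest on 2 and 3 D2 counts in Exc-Gpc6.

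Of the genes that set the cluster apart, terms were positive for Npsr1 (0.52), Emcn (1.63) and Tmem196 (0.95). They were negative for Gpc6 (-0.60), Sgcz (-0.51), B430010I23Rik (-0.67), Gabrg1 (-1.18), Atp10b (-1.52) and Fgf13 (-0.32). The term of Npsr1 turned negative against the 2 most similar types, was 0.14 (adjusted p = 0.943) without D2 library 3 and was not called by DESeq2. Those of Tmem196, B430010I23Rik and Fgf13 were lost with DESeq2, against these types and without 3 of the 4 libraries in turn. The call of Gabrg1 was lost with DESeq2 and without D2 library 3, and those of Gpc6 and Sgcz only against these types. Those of Emcn and Atp10b were called under every alternative.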

How the results depend on the processing

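Counts of calls varied with the method, and the cause was not tested. In snRNA-seq, DESeq2 called 538 and the fit to all symbols 2570 where 1518 were called, and leaving out a library gave 1003 to 1506. In snATAC-seq DESeq2 called 907 of 4652, and leaving out a library gave 1919 to 3393. For the strain-by-cell-type term DESeq2 called 104 and the 2 most similar types gave 58 where 347 were called, and leaving out a library gave 167 to 284. Genes 2-fold above all other excitatory types numbered 13 with a pseudocount of 20 CPM and 28 to 31 with a library left out, where 27 were found. The term of Npsr1 reversed against the 2 most similar types, to -0.31 (adjusted p = 0.913). With the library number as a block, 1490 genes (596 higher, 894 lower) and 4294 peaks (2143 higher, 2151 lower) were called. Deviations of same-numbered libraries, 1 value per assay with 2 libraries a strain, correlated at -0.121 in snRNA-seq and at 0.00140 in snATAC-seq. As far as the labels tell, these libraries share only a number. Crossing the pairs, an alternative chosen after seeing the data, gave 2104 calls (852 higher, 1252 lower). RLE normalization gave 1513 genes and 4600 peaks, no low-count filter 1637 genes, and at least 40 counts 4507 peaks. Of 870 values for 87 gene strain results, 751 stayed on the same side of the threshold and 119 lost the call. All 48 values for 6 peaks were the same, and of 294 for 42 strain-by-cell-type results, 206 were the same, 87 weaker and 1 reversed. Depth of 224 to 395 nuclei per library limits what can be detected for genes of few counts.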

Other observations

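The share of nuclei labelled Exc-Gpc6 was given by the authors' numbers and was not tested. In snRNA-seq it was 567 of 16565 nuclei in B6 (3.42%) and 619 of 14315 in D2 (4.32%). In snATAC-seq it was 659 of 12255 in B6 (5.38%) and 851 of 14951 in D2 (5.69%), with 7.65% in B6 library 3 against 3.91% in B6 library 2, so the B6 libraries lay on both sides of those of D2.

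Some neuropeptide genes were highest in Exc-Gpc6 among excitatory types at modest levels. Inhibitory neurons were not among the types compared. Grp, which encodes gastrin-releasing peptide, had 40.5, 27.6, 39.4 and 67.5 CPM against 29.9 CPM in Exc-ENT, and Sst, the somatostatin gene, 25.1, 21.3, 23.8 and 27.3 CPM against 19.2 CPM in Exc-DG. Strains overlapped for both, and neither was called (adjusted p = 0.0761 and 0.853). Bdnf had 30.4, 25.9, 20.9 and 30.7 CPM against 52.0 CPM in Exc-DG.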
